A study of Mus musculus with 24 samples.

Results

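The clustered histone genes were the protein-coding genes of the GENCODE vM21 annotation (mouse build mm10) whose symbols begin with Hist1h, Hist2h, Hist3h or Hist4h. They were 67 of 21951 genes, chosen by name alone. By protein they were 6 genes for the linker histone H1, 18 for H2A, 18 for H2B, 12 for H3 and 13 for H4. By position 54 lay in the Hist1 locus on chromosome 13, 10 in the Hist2 locus on chromosome 3, 2 in the Hist3 locus on chromosome 11 and 1 (Hist4h4) on chromosome 6. Clustered histone genes supply the histones that package newly copied DNA. They are transcribed mainly during S phase, mostly lack introns, and their mRNAs end in a stem-loop that the protein SLBP binds, in place of a poly(A) tail. H2A, H2B, H3 and H4 form the nucleosome core and H1 binds the linker DNA between nucleosomes.

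ATAC-seq, which relies on the preference of Tn5 transposase for accessible DNA, was used to map open chromatin in macrophages grown from bone marrow of male mice at postnatal day 28. The groups were LPSx2 (100 ng/ml of the bacterial lipopolysaccharide LPS for 4 h, a wash, 20 h in plain medium and LPS again for 24 h), LPSx1 (medium first, then LPS for 24 h) and media (medium at both steps), each in BTBR (BTBR T+ Itpr3tf/J) and C57BL6/J cells. Cells of all groups were cultured for 7 days, replated at the same density and washed alike. Each strain had 4 biological replicates, each treated all 3 ways (24 libraries). The labels do not say whether a replicate was 1 mouse. The p-values measure the spread between libraries within a group. Treatment comparisons had no term for the replicate unless a replicate block is named.

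The measurements were the lists of open regions (peaks) deposited for each library, without read counts. Depth could therefore be read only from list length, which ran from 299 to 127291 peaks as deposited. The C57BL6/J media and LPSx2 lists of replicate 6, with 299 and 1879 peaks, held no peak at any member and were left out, which left 7 LPSx2, 8 LPSx1 and 7 media libraries. In 7 lists between 66.7% and 87.4% of peaks overlapped another peak of the same list, and such peaks were merged. These were all lists of replicate 1 and the media and LPSx2 lists of replicates 3 and 4. A setting without them keeps only replicate 7 in C57BL6/J media and in C57BL6/J LPSx2. Because list lengths differed, each list was cut to the strongest peaks of equal number within its sequencing lane (11349, 22037, 16045 and 13957 peaks in lanes 1 to 4). In lanes 1 to 3 a media list was the shortest and was therefore used whole. Macrophage marker genes carried peaks at 10 of 10 genes (8 to 54 peaks per library over the list). Lists of T and NK cell, B cell, neutrophil, dendritic cell, stromal and erythroid markers each summed to at most 6 peaks per library. They were not blank: over all libraries peaks lay at 5 of 5 dendritic cell, 3 of 6 neutrophil and 3 of 5 erythroid markers. The T and NK cell, B cell and stromal lists had peaks at 2 of 6 markers each, and T and NK cell markers summed to at least 1 peak in every library. Promoter peaks lay at 8 of 10 macrophage, 1 of 5 dendritic cell and 1 of 6 neutrophil markers, and at no other. Cd3e, Pax5, Elane, Col1a1 and Gata1 were among the markers at 0.

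The sequences between the starts of the genes show how the members are built. A search of the RefSeq promoters (build GRCm38.p6, 250 bases before to 50 after the start) covered 61 of the 67 members, on both strands. The letters GGTCCG, the core of the H4 subtype element, stood in 11 of 12 H4 promoters and in 2 of 49 other member promoters, against 10.6% of 21006 protein-coding promoters. The letters CCAAT stood in 49 of 49 member promoters that were not H4 and in 3 of 12 H4 promoters, against 38.2% of all promoters. The TATA box TATAAA stood in 57.4% of member promoters and 12.5% of all promoters. The octamer ATTTGCAT, a motif of Oct factors, stood in 7 of 17 H2A and 6 of 16 H2B promoters and in no other class, against 1.68% of all promoters. The H1 box AAACACA stood in 5 of 6 H1 promoters, against 6.15% of all promoters. The E2F letters TTTCGCGC or TTTGGCGC stood in 9 of 61 member promoters (5 H2A and 4 H2B), against 1.07% of all promoters. They were Hist1h2af and the back-to-back pairs Hist1h2an and Hist1h2bp, Hist1h2ah and Hist1h2bk, Hist1h2ag and Hist1h2bj, and Hist1h2bf and Hist1h2ad. The windows of such pairs overlap, so the motif counts of H2A and H2B genes, the octamer included, take some stretches for both genes. The AP-1 letters TGACTCA or TGAGTCA stood in none of the 61, against 4.63% of all promoters, which says only that these letters are not in these windows. The only overlap between motifs was of CCAAT with GGTCCG in 1 member promoter.

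The H4 promoters on which the treatment comparison turned are given here from 200 bases before to 20 after the RefSeq start, 5′ to 3′ on the gene's strand, with the motifs in capitals. Marked are GGTCCG, then CCAAT or on the other strand ATTGG, then TATAAA or on the other strand TTTATA, and finally the octamer ATTTGCAT. They lie at chr13:23530844-23531063 (Hist1h4h, plus strand), chr13:23698439-23698658 (Hist1h4c, minus strand), chr13:23761230-23761449 (Hist1h4a, minus strand), chr6:136804412-136804631 (Hist4h4, minus strand) and chr13:23581368-23581587 (Hist1h4d, plus strand).
Hist1h4h: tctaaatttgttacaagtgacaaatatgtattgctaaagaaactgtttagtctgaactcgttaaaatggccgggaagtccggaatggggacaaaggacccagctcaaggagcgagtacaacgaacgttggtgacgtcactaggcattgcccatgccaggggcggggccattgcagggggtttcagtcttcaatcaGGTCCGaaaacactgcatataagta
Hist1h4c: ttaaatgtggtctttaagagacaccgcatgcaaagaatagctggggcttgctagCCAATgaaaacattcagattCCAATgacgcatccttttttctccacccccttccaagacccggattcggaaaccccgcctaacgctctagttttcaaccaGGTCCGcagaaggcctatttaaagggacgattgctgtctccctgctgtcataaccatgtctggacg
Hist1h4a: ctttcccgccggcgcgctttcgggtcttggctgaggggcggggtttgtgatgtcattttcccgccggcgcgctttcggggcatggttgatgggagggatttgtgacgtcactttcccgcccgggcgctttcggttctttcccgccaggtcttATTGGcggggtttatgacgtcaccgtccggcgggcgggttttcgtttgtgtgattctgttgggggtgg
Hist4h4: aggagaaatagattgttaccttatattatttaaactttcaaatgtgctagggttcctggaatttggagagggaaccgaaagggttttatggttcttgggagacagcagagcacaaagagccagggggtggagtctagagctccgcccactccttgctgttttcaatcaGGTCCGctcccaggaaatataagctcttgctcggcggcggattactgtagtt
Hist1h4d: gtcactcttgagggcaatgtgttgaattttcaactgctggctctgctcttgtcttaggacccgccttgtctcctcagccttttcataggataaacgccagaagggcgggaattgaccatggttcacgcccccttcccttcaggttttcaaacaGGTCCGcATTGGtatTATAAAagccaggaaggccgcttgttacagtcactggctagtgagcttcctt
Hist1h4a was the H4 promoter without GGTCCG.

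Members also share promoters. In 12 pairs (24 members) an H2A and an H2B gene start back to back, 176 to 306 bp apart (median 259.5 bp). In the 10 pairs with any promoter peak, both genes had the same strongest peak in 127 of 129 cases of a library with a peak, so the genes of a pair are 1 measurement and are named together here. The intervals between the starts of the 3 pairs that the strain comparison turned on are shown on the plus strand, with the same capitals. They lie at chr13:23683949-23684198, chr13:23574197-23574380 and chr13:21833508-21833742.
Hist1h2ac-Hist1h2bc: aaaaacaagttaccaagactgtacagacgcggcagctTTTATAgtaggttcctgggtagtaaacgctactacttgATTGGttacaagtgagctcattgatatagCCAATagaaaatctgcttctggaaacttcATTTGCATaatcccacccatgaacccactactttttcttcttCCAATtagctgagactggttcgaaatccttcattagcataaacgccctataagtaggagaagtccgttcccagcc
Hist1h2bf-Hist1h2ad: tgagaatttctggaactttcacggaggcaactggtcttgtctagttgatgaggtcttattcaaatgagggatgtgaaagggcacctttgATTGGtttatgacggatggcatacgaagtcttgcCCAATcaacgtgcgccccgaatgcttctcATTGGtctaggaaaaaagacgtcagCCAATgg
Hist1h2ap-Hist1h2br: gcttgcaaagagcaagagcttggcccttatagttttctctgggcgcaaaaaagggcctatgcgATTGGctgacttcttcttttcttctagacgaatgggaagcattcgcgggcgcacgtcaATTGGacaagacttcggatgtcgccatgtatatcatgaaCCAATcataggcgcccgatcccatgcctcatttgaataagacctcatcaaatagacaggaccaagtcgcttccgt

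A promoter peak was a peak whose centre lay within 500 bp of the annotated start. At least 1 library held one at 47 of the 67 members (70.15%), against 44.15% of all genes. No member had one in all 22 libraries, against 9.949% of all genes, and the most was 19 libraries, at Hist1h3e and at the shared promoter of Hist1h2ah and Hist1h2bk. Peaks were found at 13 of 18 H2A, 15 of 18 H2B, 7 of 12 H3, 9 of 13 H4 and 3 of 6 H1 promoters. The other 20 members had none, and 22 members were the nearest gene to no peak at all, among them the germ-cell forms Hist1h1t, Hist1h2aa and Hist1h2ba. In the lists at full length 8 members still had no promoter peak. Histone genes resemble each other, so reads cannot always be placed. Of the 50-base windows around the start (the read length), some occurred elsewhere in the genome for 59 of 67 members, and more than 90% did so for 10. The median repeated share was 60.3% for the members without a promoter peak and 54.1% for those with one. The part of unplaceable reads in the missing peaks was not tested.

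In each class the members with most peaks were as follows, as mean number of peaks per library over 22 libraries. Among linker histones Hist1h1c had 1.23, Hist1h1e 0.73 and Hist1h1b 0.45. Hist2h2ac led the H2A genes with 0.50, followed at 0.45 by Hist1h2ae, Hist1h2ai and Hist1h2ak. Hist2h2bb (1.27), Hist1h2bj (1.23) and Hist1h2be (1.00) led the H2B genes. The annotated start of Hist1h2be lies within the Hist1h1e gene body, so its peaks are not those of the coding unit it is named for. Hist1h3e (0.86), Hist1h3f (0.41) and Hist1h3g (0.32) led the H3 genes, and Hist1h4h (1.32), Hist4h4 (1.09) and Hist1h4d (0.91) led the H4 genes.

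Outside the Hist1 locus, Hist2h2bb had a promoter peak in 4 of 7 LPSx2, 4 of 8 LPSx1 and 7 of 7 media libraries. The shared promoter of Hist2h2ac and Hist2h2be had one in 4, 5 and 6 libraries in the same order, Hist2h2ab in 2, 2 and 3, and Hist2h3b in 1, 2 and 3. Hist2h4 had one in 0 LPSx2, 0 LPSx1 and 5 media libraries. Hist2h2aa1, Hist2h2aa2, Hist2h3c1, Hist2h3c2 and Hist3h2ba had none in any library. Hist3h2a had one in 2 LPSx2, 2 LPSx1 and 6 media libraries, and Hist4h4 in 3, 2 and 7.

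The clustered histone genes carried a smaller share of the open regions after either LPS schedule than in media. They took 0.125 ± 0.0764% of gene-assigned peaks in LPSx2 libraries (SD, n = 7; range 0.0162 to 0.226%), 0.141 ± 0.0484% in LPSx1 libraries (n = 8; 0.0711 to 0.21%) and 0.226 ± 0.0461% in media libraries (n = 7; 0.162 to 0.306%). The ranges overlapped, and within a biological replicate the share was lower in LPSx2 than in media in 7 of 7 replicates (differences of -0.187 to -0.0142 percentage points) and lower in LPSx1 than in media in 7 of 7 (-0.119 to -0.0306). LPSx2 was lower than LPSx1 in 5 of 7 replicates. The number of members with a promoter peak was 17 ± 14.4 in LPSx2 libraries, 19 ± 8.33 in LPSx1 libraries and 34.1 ± 7.43 in media libraries (SD). It was lower than in media in 7 of 7 replicates under both schedules.

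In lists of equal length promoters in general moved the same way. All genes had a promoter peak at 24.5 ± 5.03% in LPSx2, 26.2 ± 4.87% in LPSx1 and 31.3 ± 6.54% in media (SD, n = 7, 8 and 7), lower in LPSx2 and in LPSx1 in 7 of 7 replicates each. When each lane was limited to equal numbers of promoter peaks, the members' share of them was lower in LPSx1 than in media in 7 of 7 replicates (-0.161 to -0.0162 percentage points) and lower in LPSx2 in 5 of 7 (from -0.241 to 0.0323). In lists at full length the members' share of gene-assigned peaks was lower in 7 of 7 replicates under both schedules, while the number of members with a promoter peak was lower in 5 of 7 and higher in 1 of 7 under each. The number of all genes with a promoter peak did not keep its direction at full length, being lower in 4 of 7 replicates and higher in 3 of 7 under each schedule, so the general fall depended on the equal lengths. LPSx1 and LPSx2 are compared with the same media libraries, so the 2 comparisons are not independent.

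**Figure D1:**
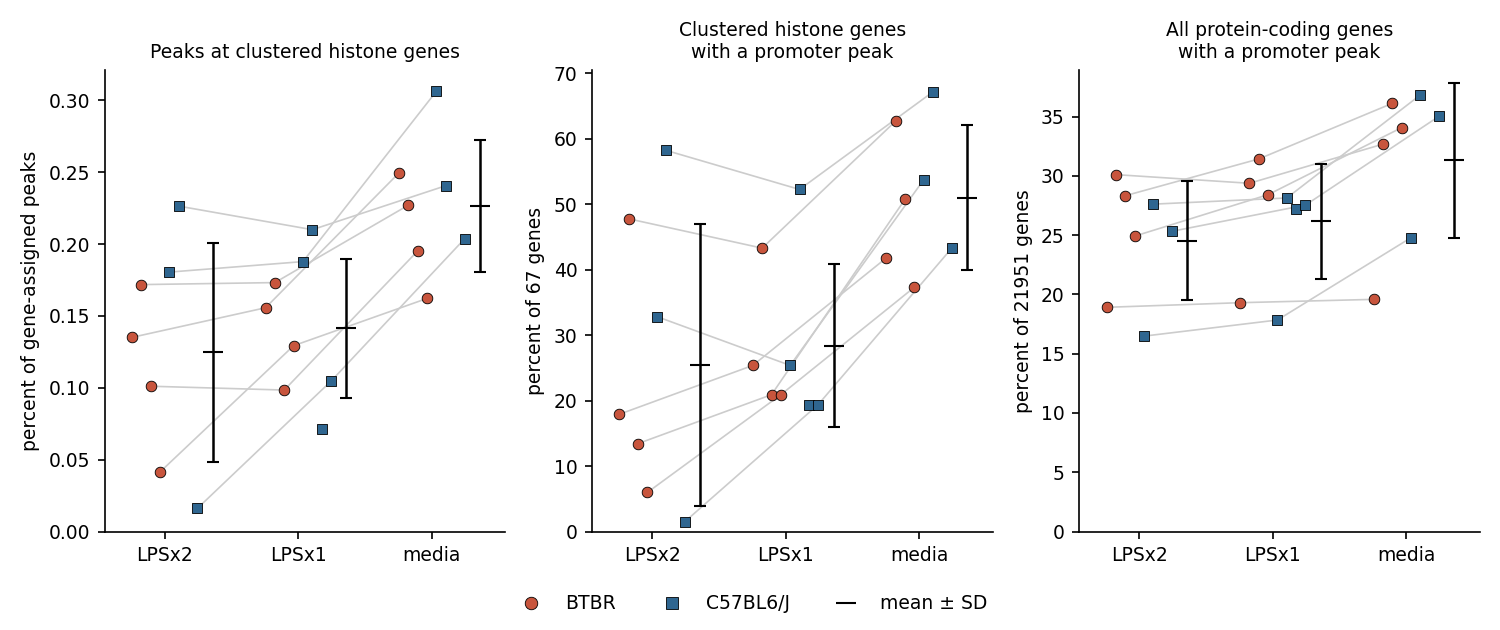
Percent of gene-assigned peaks at the clustered histone genes (left), percent of the 67 members with a promoter peak (middle) and percent of the 21951 protein-coding genes with one (right), by treatment. Points are libraries coloured by strain, grey lines join the libraries of a biological replicate, and black marks are means with SD; media libraries average 0.226% of peaks at members, above 0.125% in LPSx2 and 0.141% in LPSx1.

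Strength was compared through the promoter rank, the percentile of a gene's strongest promoter peak among the peaks of its length-limited list, with 100 the strongest peak and 0 no promoter peak in the list. It was tested over 6154 genes with a promoter peak in at least 50% of libraries, by limma with the lane as covariate and Benjamini-Hochberg adjustment over all of them. Of the 67 members 28 were tested, which are 21 separate promoters. A member can pass that filter only through media, with a promoter peak in under 50% of the LPS libraries, and then had to differ. Counted over LPSx1 and LPSx2 libraries together, this held for 4 of 8 members past the threshold in LPSx2 and 9 of 10 in LPSx1. In LPSx2 libraries alone Hist1h4a, Hist1h2an and Hist1h2bp were under 50% too, with a peak in 3 of 7 each. In all these comparisons the values are given as a description without a p. The counts describe the 28 and support nothing further.

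In LPSx1 cells 10 of 28 tested members (8 of 21 promoters) had a lower promoter rank than in media and none a higher one. Over all genes 10.4% were lower and 2.23% higher. The median difference over the 28 was -20.21 percentile points, against -6.394 over all genes tested. With the biological replicate as a block 5 of the 10 remained (Hist1h4h, Hist1h4c, Hist4h4, Hist1h2ae and Hist1h2bg). In LPSx2 cells 8 of 28 (7 of 21 promoters) were lower than in media and none higher, against 17.6% lower and 2.49% higher over all genes, with a median difference of -20.23 against -8.849. With the block 6 of the 8 remained, and Hist1h3e (-26.7, limma adjusted p = 0.0594) and Hist1h2bm did not pass. The count in both comparisons rests on equal list lengths: with lists at full length no member passed in either, and among all genes 8 were lower and 98 higher in LPSx2 and 6 lower and 149 higher in LPSx1, so the balance over all genes turned (median -3.038 in LPSx2 and 0.2028 in LPSx1). Without the 7 lists with duplicated peaks no member passed either, and leaving out 1 replicate at a time gave 2 to 7 members in LPSx2 (2 without replicate 1) and 2 to 8 in LPSx1 (2 without replicate 1, 3 or 5).

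Of the H4 genes tested, 4 of 7 passed in LPSx2 and 5 of 7 in LPSx1, of which Hist1h4a alone did not rest on media for its place in the test. Hist1h4h had a rank of 0, 0 and 1.89 in LPSx2 (lowest, median and highest of 7 libraries), 0, 0 and 6.52 in LPSx1 (8 libraries), and 33.6, 64.4 and 70.6 in media (7 libraries). The LPS libraries did not overlap the media libraries. The differences from media were -56.0 in LPSx2 (SE 7.82) and -55.3 in LPSx1 (SE 7.61), but with a promoter peak in 4 of 15 LPS libraries it was tested only through its 7 media libraries. In full lists Hist1h4h had a promoter peak in 5 of 7 LPSx2, 6 of 8 LPSx1 and 7 of 7 media libraries, and the differences there were -51.8 in LPSx2 (SE 14.8) and -45.2 in LPSx1 (SE 14.4), which did not pass. It fell below the detection filter, and so was not tested, without replicate 4, 5 or 8. With peaks within 1000 bp of the start the differences were -37.6 in LPSx2 (SE 11.7), which passed, and -23.5 in LPSx1 (SE 11.3), which did not.

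Hist1h4c, beside the germ-cell gene Hist1h1t in the Hist1 locus, ranked at 0, 0 and 63.4 in LPSx2, 0, 3.26 and 36.4 in LPSx1, and 4.73, 69.0 and 76.6 in media. The groups overlapped, yet each of 7 replicates was lower under both schedules than in media. Its rank differed from media by -37.7 in LPSx2 (SE 10.7) and by -48.5 in LPSx1 (SE 10.4), and it too was tested only through media, with a peak in 7 of 15 LPS libraries.

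Hist1h4a, with a promoter peak in 8 of 15 LPS libraries, ranked at 0, 0 and 63.4 in LPSx2, 0, 24.7 and 66.1 in LPSx1, and 12.6, 61.5 and 82.5 in media. It was lower than in media in 7 of 7 replicates in LPSx2 and in 6 of 7 in LPSx1. The differences were -37.8 in LPSx2 (SE 10.3) and -37.7 in LPSx1 (SE 10.0, limma adjusted p = 0.0154). Hist1h4a had a promoter peak in 3 of 7 LPSx2 and 7 of 7 media libraries, so its LPSx2 difference is given without a p. With the replicate block LPSx1 did not pass (limma adjusted p = 0.059).

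Hist4h4, the lone clustered-type gene on chromosome 6, ranked at 0, 0 and 67.2 in LPSx2, 0, 0 and 58.6 in LPSx1, and 6.97, 58.5 and 82.9 in media. Its groups overlapped, through replicates 3 and 5 in LPSx2 and replicates 5 and 8 in LPSx1, and it was lower than in media in 7 of 7 replicates under both. It differed from media by -37.9 in LPSx2 (SE 11.5) and by -37.9 in LPSx1 (SE 11.2), with a promoter peak in 5 of 15 LPS libraries. No window around its start was repeated elsewhere in the genome, against 37.8% at Hist1h4h, 31.7% at Hist1h4c, 40.5% at Hist1h4a and 19.2% at Hist1h4d.

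Hist1h4d ranked at 0, 0 and 60.7 in LPSx2, 0, 0 and 46.4 in LPSx1, and 0, 36.2 and 70.6 in media. Its differences from media were -23.3 in LPSx2, which did not pass, and -29.5 in LPSx1 (SE 9.0), with a promoter peak in 5 of 15 LPS libraries. The other H4 genes tested did not pass. Hist1h4i averaged 33.7 ± 30.5 in LPSx2, 19.1 ± 23.9 in LPSx1 and 48.1 ± 25.1 in media (SD, n = 7, 8 and 7), with limma adjusted p = 0.407 for LPSx2 and 0.0912 for LPSx1. Hist1h4f averaged 4.27 ± 5.85, 8.16 ± 12.0 and 24.8 ± 30.3 in the same order. Its differences from media were -22.5 in LPSx2 (SE 8.21) and -18.0 in LPSx1 (SE 7.98). It had a promoter peak in 3 of 7 LPSx2, 4 of 8 LPSx1 and 4 of 7 media libraries. Counted over both LPS schedules that is under 50%, so it was tested only through media and no p is given.

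**Figure D2:**
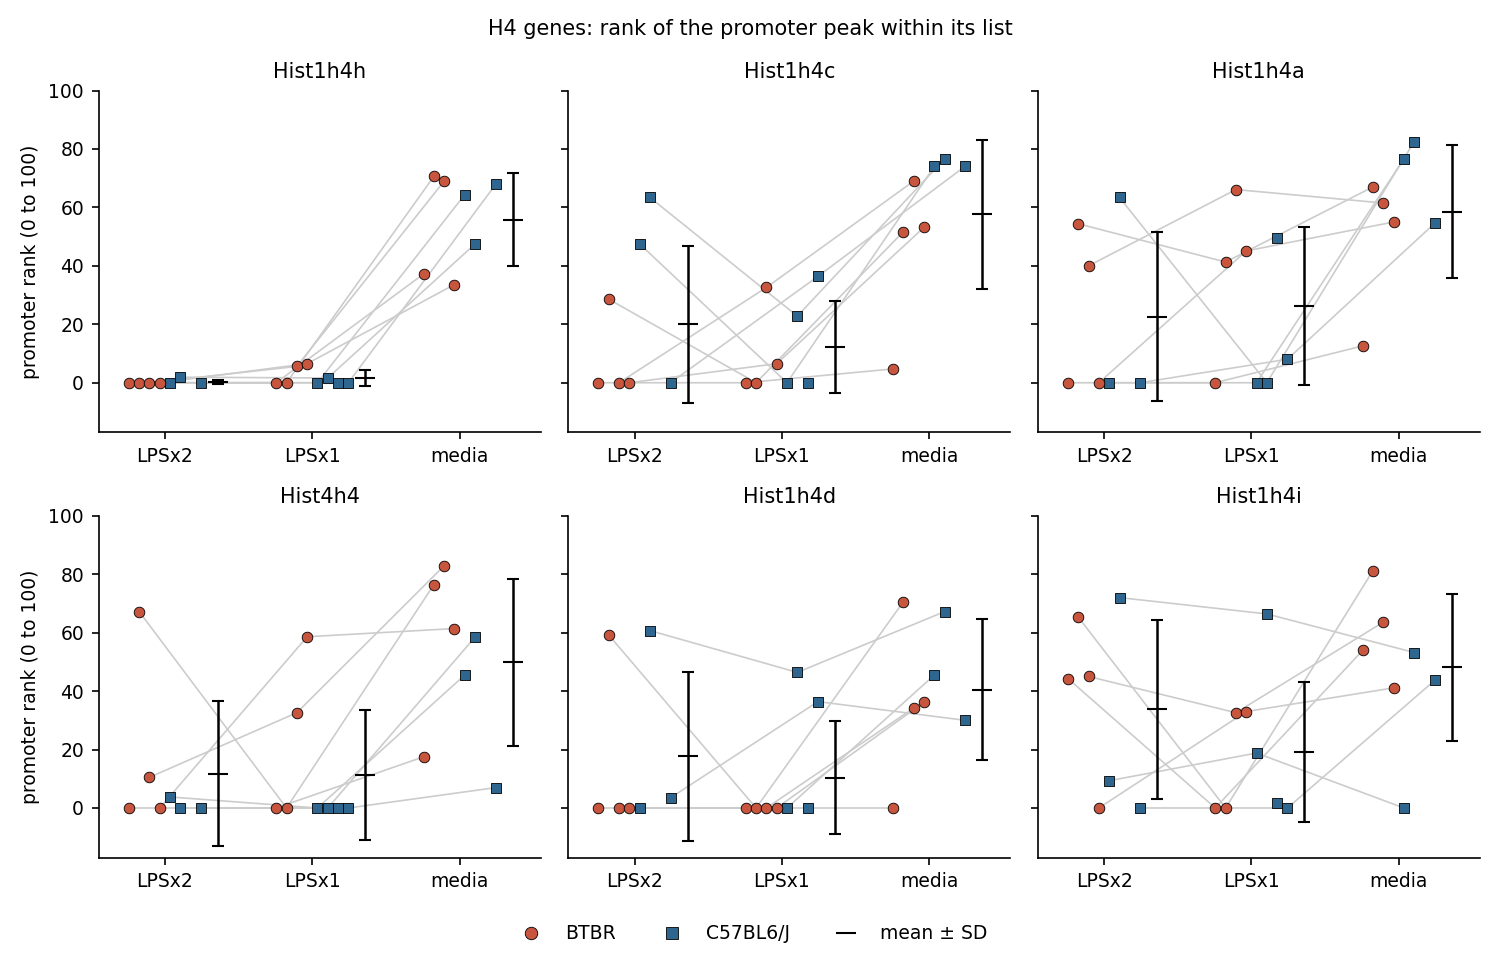
Promoter rank (percentile, 0 for no promoter peak) of 6 H4 genes in LPSx2, LPSx1 and media libraries. Points are libraries coloured by strain, grey lines join the libraries of a biological replicate, and black marks are means with SD; at Hist1h4h every media library lies at 33.6 or above and every LPS library at 6.52 or below.

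Among H2A and H2B genes the calls came from shared promoters and 2 single ones. The shared promoter of Hist1h2ae and Hist1h2bg averaged 24.7 ± 31.3 in LPSx2, 14.6 ± 22 in LPSx1 and 45.7 ± 22.5 in media (SD). It was lower than media in LPSx1 in 7 of 7 replicates (-29.9, SE 8.90). The promoter of Hist1h2ak and Hist1h2bn averaged 18.8 ± 24.7 in LPSx2, 5.43 ± 8.94 in LPSx1 and 33.8 ± 22.8 in media. Its LPSx1 difference was -27.8 (SE 9.03). Both promoters had a peak in 6 of 15 LPS libraries and so were tested only through media.

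The promoter of Hist1h2an and Hist1h2bp averaged 13.8 ± 20.7 in LPSx2, 32.3 ± 29.5 in LPSx1 and 48.7 ± 33.7 in media, and passed in LPSx2 (-33.4, SE 9.17). This promoter had a peak in 3 of 7 LPSx2 and 6 of 7 media libraries, so no p is given. Of the single H2B promoters, Hist1h2bb averaged 18.8 ± 24.2 in LPSx2, 9.68 ± 12.6 in LPSx1 and 35.2 ± 31.4 in media, with an LPSx1 difference of -24.9 (SE 8.38). Hist1h2bm averaged 18.3 ± 31.8, 26.6 ± 27.3 and 43.5 ± 25.8 in the same order, with an LPSx2 difference of -26.3 (SE 9.47). Both had a peak in 7 of 15 LPS libraries and were tested only through media. Each of these shared and single promoters passed under 1 schedule, but the difference between the schedules passed at none of them. The shared promoter of Hist1h2ah and Hist1h2bk, open in 8 of 8 LPSx1 libraries, had a difference from media of 0.0395 in LPSx1.

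The 1 H3 gene tested, Hist1h3e, averaged 21.3 ± 29.0 in LPSx2, 22.7 ± 23.6 in LPSx1 and 47.9 ± 24.2 in media. With a promoter peak in 12 of 15 LPS libraries, it passed in LPSx2 (-28.4, SE 9.37, limma adjusted p = 0.0326; 0.0594 with the replicate block) and not in LPSx1 (-24.4, limma adjusted p = 0.0706). The 1 linker histone tested, Hist1h1e, averaged 31.0 ± 25.1 in LPSx2, 32.8 ± 29.1 in LPSx1 and 52.4 ± 23.9 in media, and its LPSx1 difference of -21.2 did not pass (limma adjusted p = 0.193).

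**Figure D3:**
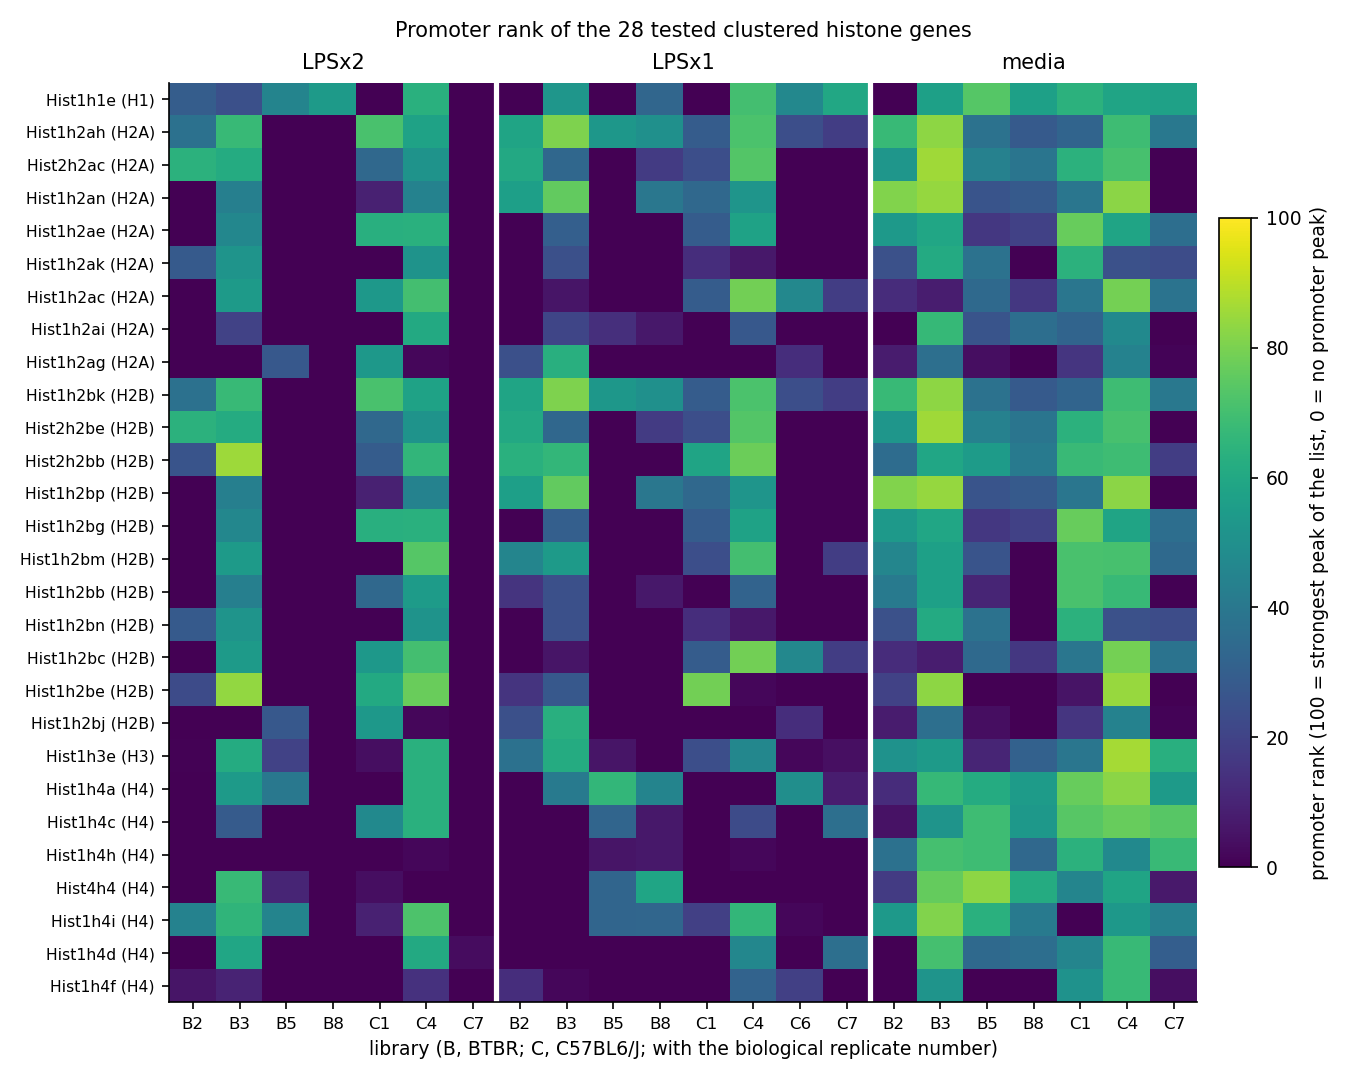
Promoter rank (colour, percentile from 0 for no promoter peak to 100) of the 28 clustered histone genes tested, in the 22 libraries grouped as LPSx2, LPSx1 and media. B marks BTBR and C marks C57BL6/J with the replicate number; genes of a shared promoter show the same values, and at Hist1h4h the 7 media libraries stand apart from the rest.

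The second measure, the number of peaks assigned to a gene, was tested over 9080 genes with a mean of at least 0.5, 21 of them members. Hist4h4 had 0.625 ± 0.744 peaks in LPSx1 and 1.57 ± 0.787 in media (SD, n = 8 and 7), a fitted difference of -1.05 (SE 0.317, limma adjusted p = 0.0494). Hist1h4d had 0.625 ± 0.744 and 1.43 ± 0.535 (-0.80, SE 0.227, limma adjusted p = 0.0368). These were the 2 members lower in LPSx1, with none higher, against 3.58% of all genes lower and 4.07% higher. Neither passed with the replicate as a block. In lists at full length the differences were 0.0313 for Hist4h4 and 0.0521 for Hist1h4d, above 0.

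In LPSx2 no member passed by limma, against 4.44% of all genes lower and 4.33% higher. At an unadjusted limma p under 0.05 there were 6 of 21 members and 2294 of 9080 genes. Hist1h4h had 0.714 ± 1.11 peaks in LPSx2 and 2.00 ± 0.577 in media (SD, n = 7 each), a difference of -1.25 (SE 0.449, limma adjusted p = 0.0864). Hist1h1c, the linker histone gene with most peaks, had 1.00 ± 0.577 in LPSx2 and 1.71 ± 0.756 in media (limma adjusted p = 0.19). The difference lay below 0 for 20 of 21 members in LPSx2 and 19 of 21 in LPSx1, against 50% and 50.3% of all genes tested.

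As regions, the length-limited lists merged into 44999 intervals, of which 58 lay at members and 62.1% of those within 500 bp of a start, against 23.0% of all. A region was called lost when at least 5 replicates held it in media but not under LPS and none the reverse. Hist2h4 (chr3:96263031-96263401, at its start) lost its region under both schedules, with 0 of 7 LPSx2, 0 of 8 LPSx1 and 5 of 7 media libraries. This holds for the length-limited lists. In full lists Hist2h4 had a promoter peak in 3 of 7 LPSx2, 4 of 8 LPSx1 and 7 of 7 media libraries. Against media, 3 member regions were lost in LPSx2 (1.38% of all regions were) and 1 in LPSx1 (1.17%). The other 2 lost in LPSx2 were at the start of Hist1h4h (chr13:23530886-23531518), in 1 LPSx2, 3 LPSx1 and 7 media libraries, and within Hist1h3f (chr13:23544209-23544604), in 1, 2 and 6. In full lists Hist1h3f had a promoter peak in 4 LPSx2, 6 LPSx1 and 7 media libraries. No member region was gained, against 2.1% of all regions in LPSx2 and 1.86% in LPSx1.

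No member passed a test of repeated against single LPS exposure. LPSx2 minus LPSx1 gave no call by limma among members or among all genes (0% each way), with 2 members and 391 genes at an unadjusted p under 0.05 for the rank, and 0 members and 399 genes for the peak number. The median rank difference over the 28 was 0.0287 against -1.643 over all genes tested. No member region was gained or lost between the schedules, against 0.0289% gained and 0.0267% lost among all regions.

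BTBR and C57BL6/J cells stood apart at 3 shared H2A and H2B promoters, 1 by limma on rank and 2 by the rule for regions, and not all in the same direction. At the first, that of Hist1h2ac and Hist1h2bc, BTBR ranks were 0, 54.4, 0 and 0 in LPSx2 (replicates 2, 3, 5 and 8), 0, 5.6, 0 and 0 in LPSx1, and 12.6, 8.16, 34.2 and 16.1 in media. C57BL6/J ranks were 53.3, 70.1 and 0 in LPSx2 (replicates 1, 4 and 7), 29.0, 78.9, 46.5 and 18.1 in LPSx1 (replicates 1, 4, 6 and 7), and 39.3, 79.1 and 38.2 in media. Each media and LPSx1 value of C57BL6/J was above each BTBR value of the same treatment, while the LPSx2 values overlapped. The fitted difference, BTBR minus C57BL6/J, was -34.8 (SE 7.87, limma adjusted p = 0.0118), and these 2 genes were the members called for rank, against 1.1% of all genes lower and 0.471% higher. It did not pass without replicate 3 (limma adjusted p = 0.133), without replicate 4 (0.18) or with 1 mean per biological replicate (0.289).

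The second promoter, that of Hist1h2ap and Hist1h2br, had a peak in 10 of 12 BTBR and 0 of 10 C57BL6/J libraries. BTBR ranks were 0, 75.0, 10.5 and 7.01 in LPSx2, 34.2, 78.8, 37.5 and 0 in LPSx1, and 57.8, 84.0, 85.2 and 58.5 in media. It was too rarely open to be tested for rank. For peak number Hist1h2br had 0.917 ± 0.289 peaks in BTBR (SD, n = 12 libraries) and 0.100 ± 0.316 in C57BL6/J (n = 10), a fitted difference of 0.83 (SE 0.141). It was the 1 member past the threshold, against 1% of all genes higher and 1.21% lower, but it entered the test only through BTBR, so no p is given. It did not pass with 1 mean per biological replicate, nor with any of replicates 3, 5 and 8 left out. Its region (chr13:21833561-21833803) was the 1 member region held by BTBR alone, against 0.164% of all regions.

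The third promoter, that of Hist1h2ad and Hist1h2bf, was the reverse, with a peak in 0 of 12 BTBR and 8 of 10 C57BL6/J libraries. C57BL6/J ranks were 41.2, 60.7 and 0 in LPSx2, 0, 66.4, 1.82 and 1.16 in LPSx1, and 83.2, 65.2 and 0.957 in media. Its region (chr13:23574191-23574534) was the 1 member region held by C57BL6/J alone, against 0.313% of all regions. In full lists it was not absent from BTBR, with a promoter peak at Hist1h2ad in 5 of 12 BTBR and 10 of 10 C57BL6/J libraries, whereas Hist1h2br had one in 11 of 12 BTBR and 0 of 10 C57BL6/J libraries. All of the windows around the start of Hist1h2br were repeated elsewhere in the mm10 genome, as were 75.2% at Hist1h2ad and 74.2% at Hist1h2ac. The reference is the C57BL6/J genome, and the part of read placement in these strain differences was not tested.

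**Figure D4:**
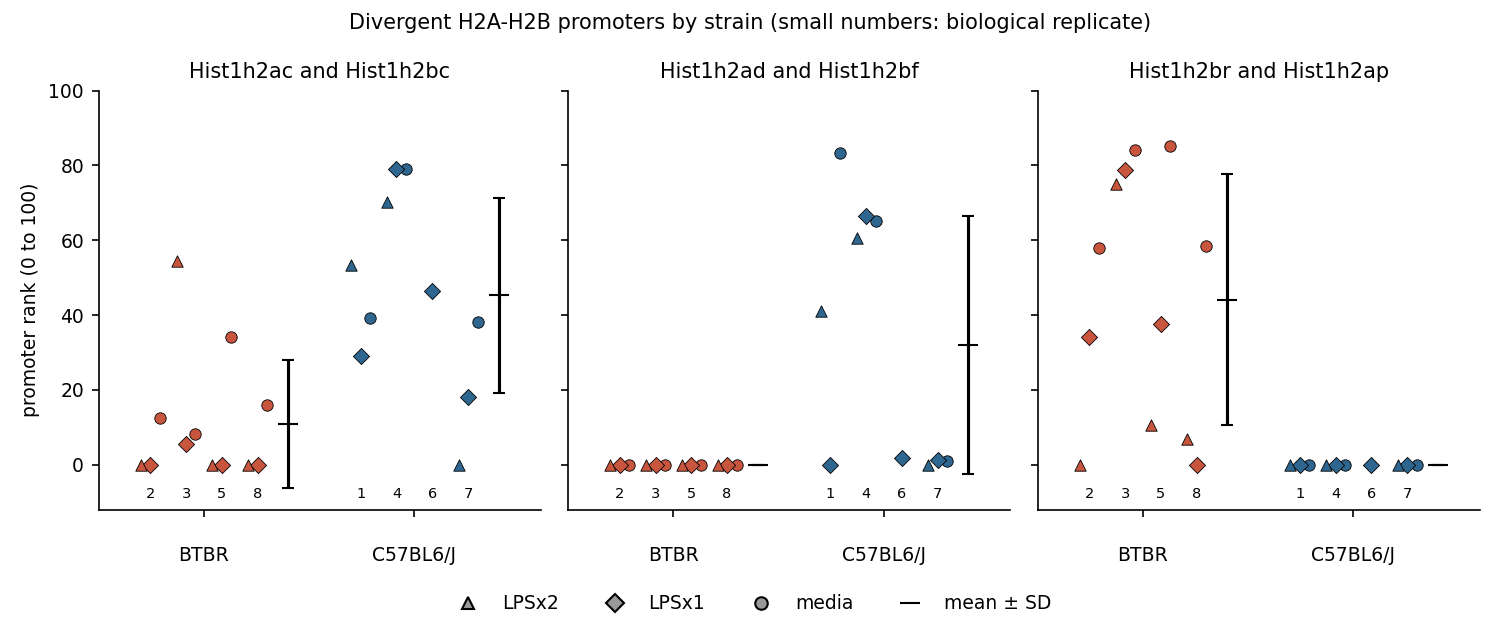
Promoter rank (percentile, 0 for no promoter peak) at 3 shared H2A and H2B promoters in BTBR and C57BL6/J libraries, with points marked by treatment. Hist1h2br and Hist1h2ap are at 0 in every C57BL6/J library, Hist1h2ad and Hist1h2bf at 0 in every BTBR library, and Hist1h2ac and Hist1h2bc are mostly higher in C57BL6/J.

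No other member passed between the strains. The members took 0.153 ± 0.0576% of gene-assigned peaks in BTBR libraries (SD, n = 12) and 0.175 ± 0.0866% in C57BL6/J libraries (n = 10). The next differences by size were -23.3 at Hist1h4c (limma adjusted p = 0.191) and 19.8 at Hist4h4. Hist4h4 had a promoter peak in 8 of 12 BTBR and 4 of 10 C57BL6/J libraries. It was thus tested only through BTBR, and no p is given. After these came -18.2 at Hist1h2ae and Hist1h2bg (limma adjusted p = 0.246) and 15.4 at Hist1h2an and Hist1h2bp (0.339). The treatment response was not shown to differ between strains at any member by limma, with interaction calls at 0% of all genes for rank, and at 0.011% lower for peak number in LPSx1. At an unadjusted p under 0.05 the rank interaction had 0 of 28 members in LPSx2 and 1 of 28 in LPSx1. Over all genes it had 635 of 6154 in LPSx2 and 594 of 6154 in LPSx1. The peak number interaction had 3 of 21 members in LPSx2 and 2 of 21 in LPSx1. Over all genes it had 579 of 9080 in LPSx2 and fewer in LPSx1.

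Genes that serve the clustered histone genes were read in the same fits, in the main setting alone. Over all genes tested for rank 17.6% were lower and 2.49% higher in LPSx2, and 10.4% lower and 2.23% higher in LPSx1. The 1086 genes lower in LPSx2 became 55 without the lane covariate and 8 at full length, and the list genes were not followed through such settings. Of 25 genes for transcription and processing of histone mRNA, 15 were tested for rank. In LPSx2 1 was lower, Lsm11, part of the U7 particle that cuts the 3′ end (-26.1, limma adjusted p = 0.0458), and none higher. In LPSx1 none passed for rank (median -2.82, against -6.394 over all genes). For peak number 1 of 14 tested was past the threshold in LPSx1, Eri1, which was lower (-0.833, SE 0.249), against 3.58% of all genes lower. Eri1 had peaks in 6 of 15 LPS and 5 of 7 media libraries and was tested only through media, so no p is given. Of 13 histone genes outside the clusters 6 were tested. H3f3a, which encodes the replacement histone H3.3, was lower in LPSx2 (-49.6, limma adjusted p = 0.00419) and LPSx1 (-35.0, 0.0359), and so was Cenpa, the centromeric H3 (-52.4, 0.0013 and -35.2, 0.0179). H3f3a had a promoter peak in 9 of 15 LPS and 6 of 7 media libraries, and Cenpa in 10 of 15 and 7 of 7. For list genes detection was counted over both schedules together and not in LPSx2 alone, so the filter may favour media in their LPSx2 p.

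Of 17 histone chaperone genes 11 were tested, and ranks moved both ways, as they did over all genes. Hira, the chaperone of H3.3, was higher in LPSx2 (35.1, limma adjusted p = 0.0205) and in LPSx1 (40.9, limma adjusted p = 0.0111), as was Nap1l1, which handles H2A and H2B (15.2 in LPSx2, limma adjusted p = 0.0328, and 16 in LPSx1, 0.0304). Rbbp7 was higher in LPSx1 (30.3, limma adjusted p = 0.0352). Ubn1, a partner of Hira, was lower in LPSx2 (-30.2, limma adjusted p = 0.0189) and in LPSx1 (-28.8, limma adjusted p = 0.0282), and Chaf1b, of the replication-coupled assembly factor CAF-1, was lower in LPSx2 (-34.7, limma adjusted p = 0.0165). Chaf1b had a promoter peak in 10 of 15 LPS and 6 of 7 media libraries. Of 20 replication and cell cycle genes 17 were tested, and 2 were lower in LPSx2, against 17.6% of all genes. None passed in LPSx1, and in LPSx2 Gmnn, the licensing inhibitor geminin (-33.0, limma adjusted p = 0.0231), and Mcm7, of the replicative helicase (-30.1, limma adjusted p = 0.042), were lower. Gmnn had a promoter peak in 8 of 15 and Mcm7 in 11 of 15 LPS libraries, each against 7 of 7 media libraries. Gmnn also had fewer peaks in LPSx2 (-1.33, limma adjusted p = 0.00827) and LPSx1 (-0.99, limma adjusted p = 0.0368), while Mki67 had more in LPSx2 (2.5, limma adjusted p = 0.0316). Over all genes the peak number was lower at 4.44% and higher at 4.33% in LPSx2, and lower at 3.58% in LPSx1. No gene of these lists passed between strains.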

How the data were processed

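ATAC-seq peak lists of 24 macrophage libraries were analysed. Per the submitters' processing notes, Trimmomatic 0.38, SAMtools 1.8, Picard 2.18.4, HOMER and bedtools were used with build mm10; the aligner is not given in the sources used here. Per the labels, libraries were sequenced as 50-base paired reads, 6 to a lane. The authors deposited 1 list per library of 201 bp peaks, each with a score in steps of 0.5, named as passing an FDR of 0.01 with blacklisted regions removed; here it served to order the peaks of 1 list and nothing else.

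Overlapping peaks were merged to the higher score, lists under 5000 peaks were left out, and lists were limited to equal length within a lane. Peaks went to the nearest protein-coding start within 100 kb. Peak number (mean of at least 0.5) and promoter rank (detection in at least 50% of libraries) were tested with limma 3.58.1 (R 4.3.3, with its trend and robust options) over 6 strain-by-treatment groups with lane as covariate, and duplicateCorrelation by biological replicate for strain. Treatment contrasts of the main fit had no term for the replicate. For strain the consensus correlation within a replicate was -0.0222 for rank and -0.0404 for peak number. Libraries of 1 replicate thus counted nearly as independent. The threshold was an adjusted p of 0.05 over all genes tested. On simulated ranks of 6154 genes for LPSx1 minus media, 45% of genes changed by 40 points and 7% of those changed by 20 were recovered. On simulated peak numbers of 8573 genes, 35% of genes changed by 4 peaks and 0% of those changed by 2 were recovered. Changed genes had means with room for the change both ways, for peak number above the mean of every member. Simulated ranks had a normal spread, unlike members with many libraries at 0. Sequences were RefSeq's (GRCm38.p6).

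Replicate numbers mark 1 biological replicate per the labels. On that ground the samples were paired in the counts over replicates and in the replicate block, but not in the main treatment fit. Same-numbered libraries deviated together (correlations 0.185 to 0.801 over 21 pairs, median 0.492), with lane not removed. Libraries of different replicates in the same lane did so too (median 0.342 over 30 pairs). These correlations therefore do not separate the replicate from its lane. Named genes were those past the threshold, the 3 with most peaks per class, the 5 largest rank differences per contrast, the Hist2, Hist3 and Hist4 genes, and list genes past the threshold. Members and lists were chosen with earlier results of these data known. Alternatives were list length, libraries kept, covariates, filters, window, distance, merging and scale.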

Additional observations from a re-analysis of the deposited data

Results flagged for a closer look

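Within a strain and treatment, 20 of 72 groups of 4 libraries tested for promoter rank held 1 library far from the other 3. The rate of about 1 in 20 that the rule takes for chance does not hold where libraries tie at 0. The count therefore cannot be read as an excess over chance. Because genes of a pair share their peak, several are the same measurement. In most the other libraries of the group had no promoter peak in the length-limited list and stood at 0.

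Replicate 3 was the separate library in each of these groups from BTBR cells. In BTBR LPSx2 it ranked at 67.2 at Hist4h4, 59.2 at Hist1h4d, 54.4 at Hist1h2ac, Hist1h2bc and Hist1h2bm, 46.2 at Hist1h2ae and Hist1h2bg, 43.1 at Hist1h2an, Hist1h2bp and Hist1h2bb, and 28.6 at Hist1h4c. In BTBR LPSx1 it ranked at 30.4 at Hist1h2ae and Hist1h2bg, 24.3 at Hist1h2ak and Hist1h2bn, and 5.6 at Hist1h2ac and Hist1h2bc. Lists of lane 2, which holds replicate 3, were limited to 22037 peaks, more than in any other lane, so that weaker peaks entered them. Their part in these ranks was not tested.

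In C57BL6/J LPSx1 replicate 4, from the same lane, ranked at 31.7 at Hist1h2bb and 1.63 at Hist1h4h, and replicate 6, from lane 3, at 49.5 at Hist1h4a.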

How the results depend on the processing

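Counts of members called depended on the processing, and causes were not tested. The setting without duplicated lists keeps only replicate 7 in C57BL6/J media and in C57BL6/J LPSx2, so its counts come from fewer and unbalanced libraries. For promoter rank in LPSx1 against media, 10 members passed; the count was 5 with the replicate block, 4 in lanes 1 and 2 alone, 2 with promoter peaks alone (Hist1h4c and Hist4h4), 1 without the lane covariate and 0 with no library left out, with the stronger 50% of each list (3 members tested), with lists at full length and without the 7 lists with duplicated peaks. For LPSx2 against media, 8 passed; the count was 6 with the replicate block, 3 in lanes 1 and 2 alone, 1 without the lane covariate, and 0 with no library left out, the stronger 50%, full-length lists, promoter peaks alone and no duplicated lists. Leaving out each replicate gave 2 to 8 in LPSx1 and 2 to 7 in LPSx2. Among all genes in LPSx1, 642 lower and 137 higher became 21 and 11 without the lane covariate, 6 and 149 at full length, 372 and 431 with promoter peaks alone, and 32 and 94 without duplicated lists, so the balance turned in the last 3.

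For promoter rank between strains, 2 members passed; the count was 6 with detection in at least 25% of libraries (among them the promoter pairs of Hist1h2ap and Hist1h2ad), 4 with promoter peaks alone, 0 without lane covariate, with 1 mean per biological replicate, with no library left out, with the stronger 50%, at full length and without duplicated lists, and 0 to 4 with a replicate left out (0 without 3 or 4). For peak number in LPSx1, 2 passed; the count was 1 in lanes 1 and 2, 0 to 1 with a replicate left out, and 0 with the replicate block and under the no-lane, no-library-left-out, stronger 50%, full-length, every-start-within-1 kb, log2, as-deposited, promoter-peak and no-duplicate settings. For LPSx2, none passed; the count was 3 without filter, 2 with every start within 1 kb, 1 on the log2 scale and 0 to 1 with a replicate left out. Between strains 1 passed; the count was 2 without filter, 0 to 1 with a replicate left out, and 0 under the no-lane, replicate-mean, stronger 50%, full-length, lanes 1 and 2, every-start, as-deposited and no-duplicate settings. The replicate block changed no other call.

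Directions turned for Hist1h4d peak number in LPSx1 (0.0521 at full length) and Hist4h4 (0.0313 at full length, 0.0417 with lists as deposited). The members' share of peaks stayed lower than media under each alternative run, with replicates left out by -0.126 to -0.0831 points in LPSx2 and -0.102 to -0.076 in LPSx1. The share in LPSx2 minus LPSx1 was -0.0146, and -0.0795 without duplicated lists. BTBR minus C57BL6/J was -0.0248, and 0.00777 with no library left out and 0.0286 without duplicated lists. Without duplicated lists C57BL6/J media and LPSx2 rest on replicate 7 alone, whose LPSx2 share was 0.0162%, so the values of that setting depend on single libraries. With the stronger 50% of lists, member regions lost were 1 in LPSx2 and 2 in LPSx1, and none was held by BTBR alone or C57BL6/J alone. The lists hold no read counts, so a weaker peak and a shallower library cannot be told apart beyond rank.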

Other observations

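Limited to equal numbers of promoter peaks within a lane, the clustered histone genes took 0.356 to 0.622% of them in the 12 libraries of lanes 1 and 2 and 0.0358 to 0.241% in the 10 kept libraries of lanes 3 and 4. Libraries of lanes 1 and 2 had 6 to 8 additional PCR cycles and the kept libraries of lanes 3 and 4 had 10 to 13. Lane, PCR cycles and replicates cannot be told apart here, and each lane holds both strains and all treatments.

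A second open region near Hist1h2bj, 7864 bp from its start (chr13:22050949-22051207), was present in 6 of 7 LPSx2, 7 of 8 LPSx1 and 6 of 7 media libraries. It was held by 19 of 22 libraries, as many as the most widely open member promoters, and in none of the 7 replicates was it in media but not under LPS or the reverse. It was picked out after its values were seen.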
